A study of Mus musculus with 8 samples.

Results

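The genes examined here were 36 genes of protein folding in the endoplasmic reticulum (ER) and of the unfolded protein response, measured by bulk RNA-seq in splenic B cells of transgenic mice. They were taken by gene symbol from a count matrix of 24902 symbols, and all 36 were present with a count in each of 8 libraries, passed the expression filter and were among the 13173 genes tested. The libraries came from 4 mice of the genotype Eµ-PRMT5, 3 of the genotype Eµ-PRMT5/TCL1 and 1 Eµ-TCL1 mouse, each a separate animal of strain C57BL/6N by its label, taken at early removal criteria, when disease called for euthanasia. All 8 mice carried a transgene driven in B cells. Eµ-PRMT5 mice carry human PRMT5, an arginine methyltransferase, under a VH promoter and the IgH Eµ enhancer, Eµ-TCL1 mice carry the human TCL1 oncogene and are a model of chronic lymphocytic leukemia, and Eµ-PRMT5/TCL1 mice come from a cross of both and carry both. Ages are not given in the sources used here, and sexes were mixed in the study's experiments. Eµ-PRMT5 mouse 2 bears the number that the methods give to a founder, and which founder line the other 6 mice with the PRMT5 transgene come from is not given in the sources used here. B cells were isolated by a pan-B kit, which takes normal and leukemic B cells alike. Wild-type mice were not analysed here, so no value below is relative to a cell without a transgene.

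Secreted and membrane proteins, including immunoglobulins, fold in the ER with the help of chaperones and of enzymes that form disulfide bonds, and proteins that fail to fold are sent back to the cytosol for degradation. When unfolded proteins build up, 3 sensors in the ER membrane respond. IRE1 (the product of Ern1) splices the mRNA of the transcription factor XBP1, ATF6 is cleaved into a transcription factor, and PERK (the product of Eif2ak3) phosphorylates a translation initiation factor, which slows translation in general but favors that of ATF4. XBP1 is needed for the secretory capacity of plasma cells, and the whole response is prominent in B-lineage cells that make antibody. ATF4 is also induced by kinases that sense amino acid shortage and other stresses, so its targets do not report on the ER alone. RNA levels do not measure sensor activity, XBP1 splicing or protein.

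Counts on genes ranged from 3.36 M (Eµ-TCL1) to 10.25 M (Eµ-PRMT5 mouse 4) per library, and members had between 29 and 26805 counts in a library. Eµ-PRMT5 mouse 1 had a count for 16379 symbols against 20411 to 21475 in the other 7 libraries. All 9 B cell markers examined, Cd79a and Ms4a1 among them, had counts in every library, and their summed level in CPM, which are counts scaled to the size of the library, was 1782 to 5950 with PRMT5 alone, 2880 to 7108 with both transgenes and 4058 with TCL1 alone. Eµ-PRMT5 mouse 4 had the lowest B cell sum (1782 CPM), the highest sum of 10 proliferation genes (5633 CPM, against 540 to 2621 CPM in the other 7 libraries) and the highest sum of the 7 erythroid markers tested (614 CPM, against 33.3 to 382 CPM). Neutrophil granule genes (12 of 12 tested) summed to 434 to 5537 CPM, 671 to 9310 CPM and 622 CPM in that order of genotypes. The 8 plasma cell markers tested summed to 872 to 3921 CPM, 560 to 3084 CPM and 1149 CPM. The macrophage markers tested (5 of 10) reached 744 CPM at most and the T cell markers (6 of 10) 727 CPM. The rest, C1qa, C1qb, C1qc, Cd4 and Cd8a among them, were not among the genes tested, so these sums are no upper limit. Testing required a value in every library, and of the markers tested only the erythroid Klf1 was listed at 0 in a library. Mouse Prmt5, the ortholog of the human transgene, lay between 62.7 and 235 CPM, between 110 and 126 CPM and at 79.5 CPM in PRMT5, double transgenic and TCL1 mice. Whether human transgene reads could add to it is not given in the sources used here. In bulk samples, a lower level can come from fewer cells of a type or from less RNA per cell, and these cannot be told apart.

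Members differed widely in level. Per kilobase of exon and as the mean over the 8 mice, Hspa5, which encodes the main ER Hsp70 chaperone BiP, stood highest at 552 CPM per kb, followed by Herpud1, a membrane component of ER-associated degradation, at 487, Pdia4, a disulfide isomerase, at 467 and the chaperone-like Creld2 at 406 CPM per kb. Lowest of the 35 members with a length were Ern1 at 3.87 CPM per kb and Hyou1, an ER Hsp110 that exchanges nucleotide on BiP, at 12.2 CPM per kb. The ranges over mice were wide enough to overlap between neighbors in this order: Hspa5 spanned 298 to 1003 and Herpud1 191 to 805 CPM per kb. Sensors lay near the bottom, with Atf6 at 14.7 and Eif2ak3 at 13.8 CPM per kb.

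Some members also share short promoter sequences that are named for this response. Genes and motifs were both taken from what is known of it, so the shares below are a description and not independent support. Of the 36 genes, 31 had a promoter window in RefSeq (GRCm38.p6). Hyou1, Manf, Derl1, Sec61a1 and Atf6 had none. The ER stress response element, read here as CCAAT, 9 free bases and CCACG on either strand, was found in the windows of 9 of 31 members (29.0%) against 0.137% of 27025 genes with a window. The 9 were Hspa5, Hsp90b1, Calr, Canx, Pdia6, Creld2, Dnajc3, Syvn1 and Derl3. A second form, ATTGG, 1 free base and CCACG, was found in Dnajb11 and Herpud1, 6.45% of members against 0.0444% of genes. The core of an ATF4 composite site, TGATG, 1 free base and AA, was found in Herpud1, Trib3, Asns and Chac1, which is 12.9% of members against 4.51% of genes. ACGTG, the core read by XBP1 and ATF6, was in 45.2% of members against 21.8% of genes, and can overlap the longer elements, as it does in Herpud1. A match describes the letters in a window and is not evidence of binding. The windows of 5 genes to which the results below return are printed 5′ to 3′ on the strand of the gene, with the bases of the ER stress response elements (Hspa5, Calr and Herpud1) and of the ATF4 composite core (Herpud1, Trib3 and Chac1) in capitals. In Calr the element, and in Herpud1, Trib3 and Chac1 the composite core, lie on the other strand and so read as their reverse complement. They are chr2:34771840-34772139 on the plus strand for Hspa5, chr8:84846882-84847181 on the minus strand for Calr, chr8:94386179-94386478 on the plus strand for Herpud1, chr2:152344011-152344310 on the minus strand for Trib3 and chr2:119350992-119351291 on the plus strand for Chac1.
Hspa5: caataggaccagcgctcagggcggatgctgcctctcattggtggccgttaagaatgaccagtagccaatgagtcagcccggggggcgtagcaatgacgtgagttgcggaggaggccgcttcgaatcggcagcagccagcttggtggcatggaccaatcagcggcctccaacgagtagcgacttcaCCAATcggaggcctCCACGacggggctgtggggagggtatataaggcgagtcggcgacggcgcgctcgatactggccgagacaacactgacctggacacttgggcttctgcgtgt
Calr: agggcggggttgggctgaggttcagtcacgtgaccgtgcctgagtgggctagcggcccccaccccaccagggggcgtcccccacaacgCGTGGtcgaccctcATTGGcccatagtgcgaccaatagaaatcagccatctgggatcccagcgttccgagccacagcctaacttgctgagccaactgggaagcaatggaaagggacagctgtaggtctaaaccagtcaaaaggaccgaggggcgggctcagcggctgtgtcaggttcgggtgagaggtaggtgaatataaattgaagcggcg
Herpud1: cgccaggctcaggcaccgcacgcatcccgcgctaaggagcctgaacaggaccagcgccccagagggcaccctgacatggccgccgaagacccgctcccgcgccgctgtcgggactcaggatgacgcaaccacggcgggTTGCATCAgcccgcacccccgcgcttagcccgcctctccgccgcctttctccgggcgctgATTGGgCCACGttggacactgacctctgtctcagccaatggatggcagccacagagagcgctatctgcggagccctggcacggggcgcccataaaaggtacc
Trib3: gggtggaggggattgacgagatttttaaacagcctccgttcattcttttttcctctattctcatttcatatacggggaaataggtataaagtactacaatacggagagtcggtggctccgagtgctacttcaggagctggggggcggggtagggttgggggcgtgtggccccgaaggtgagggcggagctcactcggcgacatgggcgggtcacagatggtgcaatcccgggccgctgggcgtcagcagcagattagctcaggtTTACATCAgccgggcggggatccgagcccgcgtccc
Chac1: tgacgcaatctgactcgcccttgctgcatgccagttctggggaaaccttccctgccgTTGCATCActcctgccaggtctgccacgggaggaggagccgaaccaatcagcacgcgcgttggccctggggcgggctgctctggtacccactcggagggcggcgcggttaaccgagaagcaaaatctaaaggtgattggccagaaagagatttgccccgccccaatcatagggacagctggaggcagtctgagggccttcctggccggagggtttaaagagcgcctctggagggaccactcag

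The first question was whether these genes differ between mice with both transgenes and mice with PRMT5 alone, the only comparison with replicates on both sides. No member passed. With edgeR's quasi-likelihood test over all 13173 genes and Benjamini-Hochberg adjustment, 0 of 36 members had a higher and 0 a lower level with both transgenes at an adjusted p under 0.05, where 0.0% of all genes were higher and 0.0% lower. The smallest adjusted p of any gene was 0.730. DESeq2 called 3 genes higher (0.0228%) and 1 lower (0.00759%) and again no member. Before adjustment, edgeR's p was under 0.05 with a higher level for 126 genes (0.957%) and with a lower level for 160 (1.21%), and among the members for 0 and 1. That 1 was Eif2ak3, which DESeq2 also gave alone of the members. The 1 became 0 with library size only, upper-quartile scaling, at least 10 counts required in every library, only the 2 groups compared in the fit or missing cells counted as 0. The 3 Eµ-PRMT5/TCL1 mice lay all above the 4 Eµ-PRMT5 mice for 178 genes (1.35%) and all below them for 210 (1.59%). No member showed either pattern. The median fitted log2 fold change was -0.07 over the members and -0.09 over all genes tested. It was above 0 for 14 members and below for 22, so 38.9% of members lay above 0, against 40.6% of all genes. The members' median was 0.143 without Eµ-PRMT5 mouse 4. The fitted differences ran from -0.85 for Eif2ak3 to 0.47 for Syvn1, which encodes the ubiquitin ligase of ER-associated degradation. Standard errors of the fitted differences ran from 0.31 to 0.99 on the log2 scale. Differences of the size fitted here, and larger ones, could be missed with these numbers of mice. In simulated counts with 200 genes changed by 2 on the log2 scale, edgeR found 33% of them at an adjusted p under 0.05. At a change of 3 it found 82%. DESeq2 found 61% and 89.5% in the same simulated counts. It also called 31 and 48 genes that had not been changed, against 5 and 9 by edgeR.

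**Figure D1:**
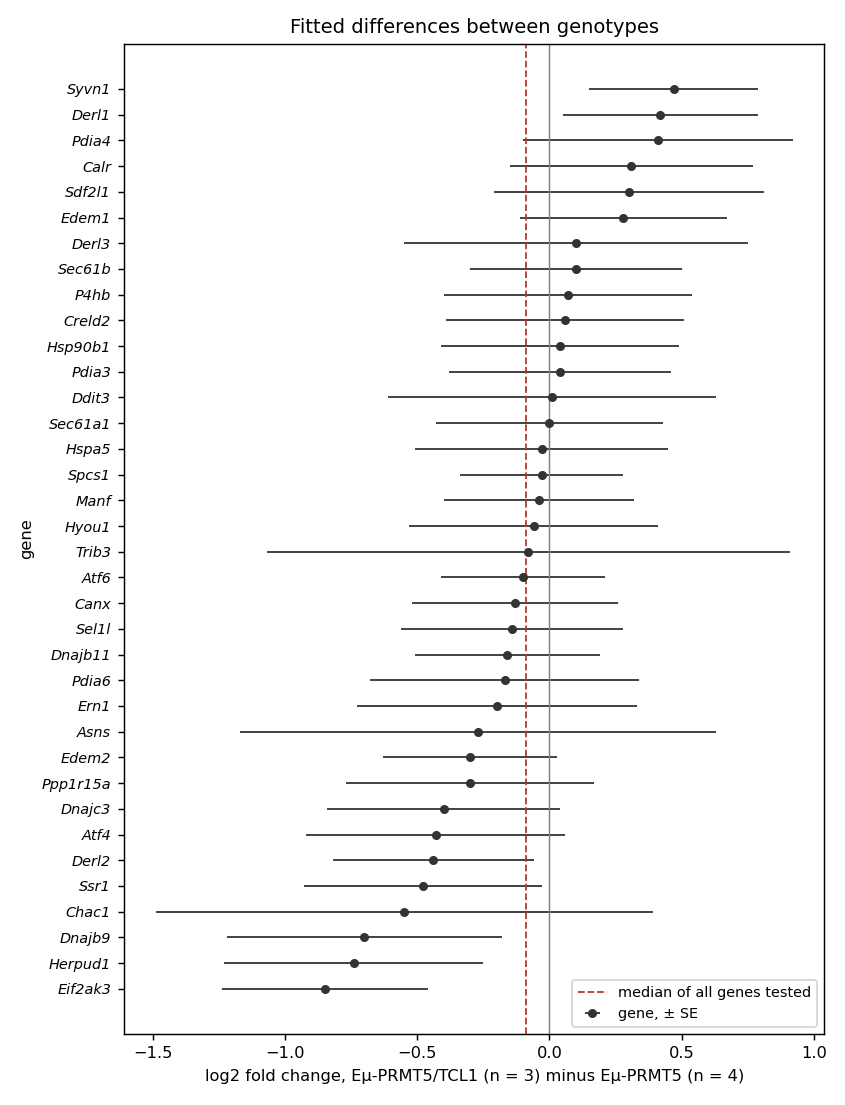
Fitted log2 fold change of each of the 36 genes, Eµ-PRMT5/TCL1 (n = 3) minus Eµ-PRMT5 mice (n = 4), on the x axis, with bars for the standard error and a dashed line at the median of all genes tested (-0.09). The values run from -0.85 (Eif2ak3) to 0.47 (Syvn1), and Trib3, Chac1 and Asns have the widest bars.

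Mice of one genotype spread widely. Averaged over all 36 genes, log2 CPM was 7.66, 7.97, 7.14 and 7.93 in mice 1 to 4 with PRMT5 alone, 7.77, 7.5 and 7.59 in the 3 with both transgenes and 7.43 with TCL1 alone. Thus Eµ-PRMT5 mice enclosed all other libraries. The SD of log2 CPM between Eµ-PRMT5 mice had a median of 0.72 over the members and 0.66 over all genes tested, and between Eµ-PRMT5/TCL1 mice of 0.33 and 0.36. Role groups differed in this respect. The median SD was 1.34 and 1.55 for the 6 genes of the PERK and ATF4 arm, against 0.70 and 0.35 for the 14 chaperones and folding enzymes.

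**Figure D2:**
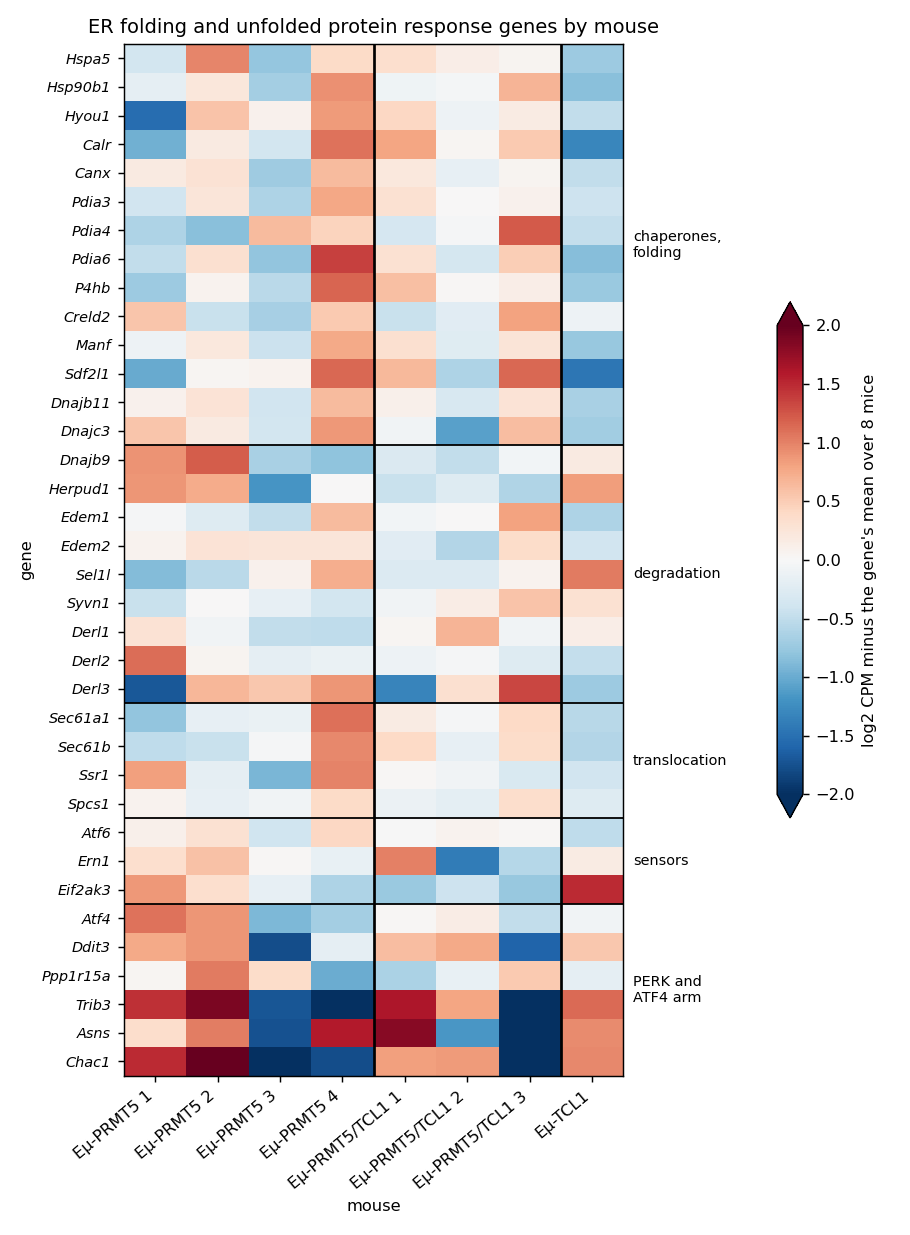
Each row is 1 gene and each column 1 mouse, colored by log2 CPM minus the gene's mean over the 8 mice (blue below, red above, with colors saturated beyond 2 units), and black lines part genotypes and role groups. Chaperones are reddest in Eµ-PRMT5 mouse 4 and bluest in the Eµ-TCL1 mouse, and Trib3, Asns and Chac1 at the bottom change most from mouse to mouse within a genotype.

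Among the chaperones and folding enzymes, Hspa5 (chromosome 2, 34771970 to 34777547 on GRCm38) was at 1686, 4244, 1261 and 2826 CPM in Eµ-PRMT5 mice 1 to 4, 2731, 2376 and 2233 CPM in Eµ-PRMT5/TCL1 mice 1 to 3 and 1318 CPM in the Eµ-TCL1 mouse. The Eµ-PRMT5/TCL1 mice lay close together inside the range of the Eµ-PRMT5 mice, and the fitted log2 fold change was -0.03 ± 0.48 (SE). Hsp90b1, the ER Hsp90 chaperone Grp94, was at 915, 1211, 647 and 1936 CPM, then 969, 1007 and 1649 CPM, then 579 CPM in the same order of mice. Calr, a chaperone that binds sugar chains on folding glycoproteins, was at 143, 315, 216 and 586 CPM, 482, 286 and 401 CPM, and 113 CPM. In both genes Eµ-PRMT5 mouse 4 was highest and the Eµ-TCL1 mouse lowest. Sdf2l1, a component of the chaperone complex around BiP, was at 60.5, 126, 129 and 270 CPM, 192, 79.4 and 271 CPM, and 44.6 CPM. Creld2 was at 766, 382, 325 and 744 CPM, 382, 445 and 906 CPM, and 484 CPM, and Manf, a secreted factor retained in the ER by BiP, was at 119, 147, 94.4 and 217 CPM, 160, 108 and 154 CPM, and 76.0 CPM. Manf again had its highest value in Eµ-PRMT5 mouse 4 and its lowest in the Eµ-TCL1 mouse, whereas Creld2 was highest in Eµ-PRMT5/TCL1 mouse 3 and lowest in Eµ-PRMT5 mouse 3. The other 8 genes, Hyou1, Canx, Pdia3, Pdia4, Pdia6, P4hb, Dnajb11 and Dnajc3, had fitted log2 fold changes from -0.40 (Dnajc3) to 0.41 (Pdia4).

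Eµ-PRMT5 mouse 4 was the highest of the 4 Eµ-PRMT5 mice for 11 of the 14 chaperones and folding enzymes (78.6%), where it was highest for 27.8% of all genes tested, and mouse 3 was the lowest for 9 of 14 (64.3%, against 27.4% of all genes). Their mean log2 CPM over the 14 genes was 9.45 and 8.23, with 8.27 and 8.79 in mice 1 and 2, and 8.85, 8.41 and 9.09 in Eµ-PRMT5/TCL1 mice 1 to 3. Mouse 4 is also the library with the lowest B cell and the highest proliferation and erythroid marker sums, and the part of those cells in its chaperone level was not tested. Hyou1 had the lowest value of any library, 27.8 CPM, in Eµ-PRMT5 mouse 1, which also had the fewest symbols with a count, against 57.0 to 144 CPM in the other 7.

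**Figure D3:**
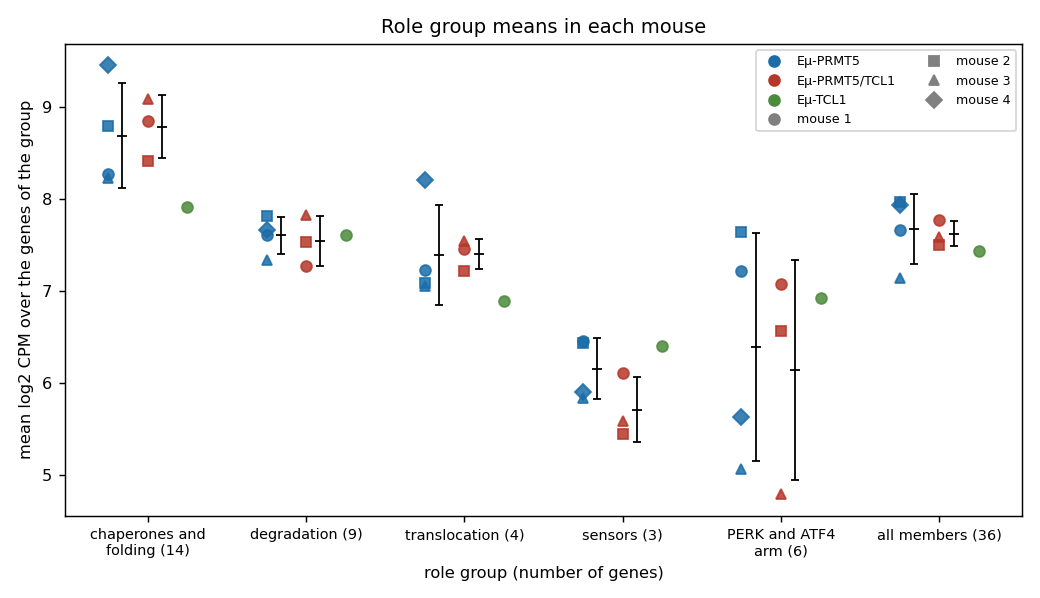
Mean log2 CPM over the genes of each role group (y axis) in each mouse, with color for genotype, shape for the mouse number and black bars for mean ± SD of the 4 Eµ-PRMT5 and 3 Eµ-PRMT5/TCL1 mice. The PERK and ATF4 arm spreads from 5.06 to 7.64 in Eµ-PRMT5 and from 4.79 to 7.07 in Eµ-PRMT5/TCL1 mice, while degradation genes lie between 7.27 and 7.82 in all 8.

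Genes of ER-associated degradation, which recognize misfolded proteins and carry them out of the ER, had the smallest spread as a group, with means of 7.61, 7.81, 7.33 and 7.66 log2 CPM in Eµ-PRMT5 mice 1 to 4, 7.27, 7.53 and 7.82 in Eµ-PRMT5/TCL1 mice 1 to 3 and 7.61 with TCL1 alone. Single genes of the group ranked the mice in different orders. Herpud1 (chromosome 8, 94386438 to 94395377), whose window above holds both a second ER stress response element and an ATF4 composite core, was at 1877, 1692, 446 and 1015 CPM in Eµ-PRMT5 mice 1 to 4, 740, 847 and 666 CPM in Eµ-PRMT5/TCL1 mice 1 to 3 and 1813 CPM with TCL1 alone. Its fitted log2 fold change of -0.74 ± 0.49 between the replicated genotypes had an unadjusted p of 0.153 by edgeR, and Eµ-PRMT5 mouse 3 lay below all 3 Eµ-PRMT5/TCL1 mice. Dnajb9, a BiP co-chaperone that is a classical target of XBP1, was at 56.8, 70.6, 19.4 and 17.3 CPM, 24.9, 21.6 and 29.4 CPM, and 34.6 CPM (log2 fold change -0.70 ± 0.52). For both genes the 2 highest Eµ-PRMT5 values were those of mice 1 and 2. Sel1l, the adaptor of the ubiquitin ligase encoded by Syvn1, was highest elsewhere, at 238, 300, 465 and 725 CPM, 359, 362 and 459 CPM, and 897 CPM in the Eµ-TCL1 mouse. Syvn1 itself was at 197, 270, 240 and 208 CPM, 255, 297 and 399 CPM, and 332 CPM (log2 fold change 0.47 ± 0.32), so the ligase and its adaptor did not rank the mice alike. Derl3, an ER membrane protein of this pathway that is enriched in secretory cells, was at 7.10, 37.8, 34.7 and 44.4 CPM, 9.35, 29.7 and 60.7 CPM, and 14.3 CPM, and both replicated groups held 1 mouse far below the others. Edem2, which trims sugars to mark proteins for degradation, was the steadiest gene of the group in Eµ-PRMT5 mice (SD of log2 CPM 0.09). Edem1, Derl1 and Derl2 had fitted log2 fold changes of 0.28, 0.42 and -0.44.

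The 4 translocation genes, Sec61a1 and Sec61b of the channel that admits new proteins, Ssr1 of the complex beside it and Spcs1 of the signal peptidase, were all highest in Eµ-PRMT5 mouse 4 among Eµ-PRMT5 mice. Their mean was 8.2 log2 CPM there, against 7.05 to 7.23 in the other 3 and 7.22 to 7.54 in Eµ-PRMT5/TCL1 mice. Ssr1, with the largest fitted difference of the 4, was at 523, 260, 156 and 588 CPM in Eµ-PRMT5 mice 1 to 4, 299, 281 and 240 CPM in Eµ-PRMT5/TCL1 mice 1 to 3 and 228 CPM in the Eµ-TCL1 mouse (log2 fold change -0.48 ± 0.45). The wider list of 29 other translocation, glycosylation and signal peptidase genes was likewise highest in Eµ-PRMT5 mouse 4, at a mean of 7.91 log2 CPM against 6.91 to 7.41 in the other 7 libraries. The marker sums of that library given above apply here too, and their part was not tested.

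Of the 3 sensors, Atf6 varied least. It was at 143, 165, 101 and 176 CPM in Eµ-PRMT5 mice 1 to 4, 133, 139 and 136 CPM in Eµ-PRMT5/TCL1 mice 1 to 3 and 93.5 CPM in the Eµ-TCL1 mouse, and its SD of log2 CPM in Eµ-PRMT5/TCL1 mice, 0.03, was smaller than that of all but 0.987% of genes of like level. Ern1 was low and scattered, at 35.9, 42.9, 29.0 and 25.7 CPM, 57.9, 10.6 and 19.1 CPM, and 31.9 CPM, and the Eµ-PRMT5/TCL1 mice enclosed all other libraries. Eif2ak3 (chromosome 6, 70844515 to 70905245) was at 129, 89.8, 63.1 and 46.0 CPM, 42.0, 53.0 and 41.5 CPM, and 199 CPM in the same order of mice. The genotypes overlapped only through Eµ-PRMT5 mouse 4, which lay between Eµ-PRMT5/TCL1 mice. The log2 fold change was -0.85 ± 0.39 (unadjusted p = 0.0493, adjusted p = 1 by edgeR), and 8.05% of its exon bases lie opposite a gene model on the other strand, to which part of its counts may belong since whether counting used strand is not given. Without Eµ-PRMT5 mouse 1 or 2, or without Eµ-PRMT5/TCL1 mouse 2 or 3, it no longer had an unadjusted p under 0.05. As 1 of 36 members at an unadjusted p, it stands against 1.21% of all genes in the same direction.

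Genes of the PERK and ATF4 arm spread most from mouse to mouse within each genotype. Trib3, a pseudokinase induced by ATF4 and CHOP (chromosome 2, 152337422 to 152344032), was at 105, 140, 11.4 and 7.15 CPM in Eµ-PRMT5 mice 1 to 4, 116, 65.3 and 5.07 CPM in Eµ-PRMT5/TCL1 mice 1 to 3 and 83.5 CPM in the Eµ-TCL1 mouse. Chac1, which degrades glutathione and is another ATF4 target (chromosome 2, 119351229 to 119354381), was at 82.4, 119, 6.61 and 8.30 CPM, 51.6, 53.2 and 5.84 CPM, and 57.0 CPM. The ATF4 composite core printed above lies in the window of both. In both genes Eµ-PRMT5 mice 3 and 4 and Eµ-PRMT5/TCL1 mouse 3 formed a low set well apart from the other 5 libraries, and the highest exceeded the lowest 19.6-fold and 17.9-fold within Eµ-PRMT5 and 23.0-fold and 9.11-fold within Eµ-PRMT5/TCL1 mice. The lowest values rest on 29 to 72 counts a library. Ddit3, which encodes CHOP, a transcription factor that promotes cell death under prolonged stress, was at 103, 112, 17.6 and 53.7 CPM, 93.5, 103 and 19.8 CPM, and 89.2 CPM. Asns, asparagine synthetase, was at 86.5, 137, 20.1 and 205 CPM, 240, 29.9 and 9.37 CPM, and 130 CPM. Thus Ddit3 placed Eµ-PRMT5 mouse 4 in the middle and Asns placed it at the top, while mouse 3 of both genotypes stayed low for each. Atf4 itself was at 467, 403, 119 and 137 CPM, 225, 243 and 158 CPM, and 211 CPM, a narrower spread than its targets in Eµ-PRMT5/TCL1 mice (SD of log2 CPM 0.33, against 2.36 for Trib3, 2.35 for Asns, 1.79 for Chac1 and 1.32 for Ddit3). Ppp1r15a, which encodes GADD34, the phosphatase subunit that reverses the PERK signal, went its own way, at 306, 615, 386 and 150 CPM, 193, 269 and 426 CPM, and 264 CPM.

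**Figure D4:**
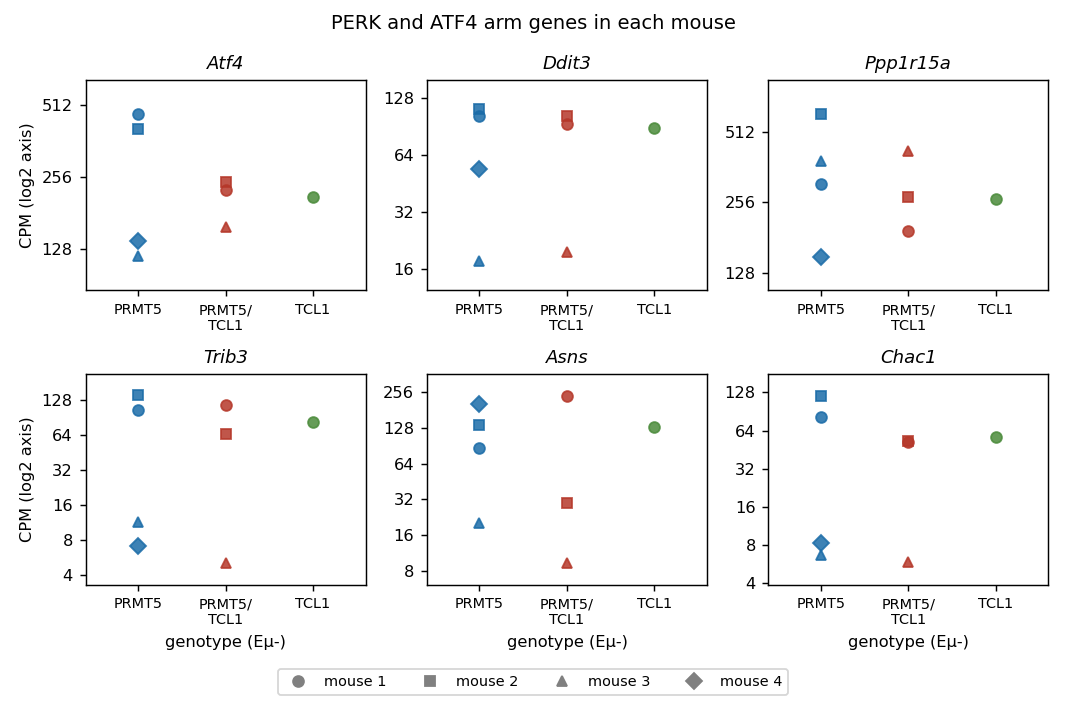
CPM on a log2 axis for the 6 genes of the PERK and ATF4 arm, 1 point a mouse, by genotype (x axis), with shapes for the mouse number. In Trib3 and Chac1 the Eµ-PRMT5 mice 3 and 4 and the Eµ-PRMT5/TCL1 mouse 3 lie between 5.07 and 11.4 CPM and all others between 51.6 and 140 CPM.

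Spread of this size was uncommon at these levels. The SD of log2 CPM of Trib3, Chac1, Asns and Ddit3 exceeded that of 95.1% to 99.3% of genes of like mean level in Eµ-PRMT5 mice and of 99.1% to 99.9% in Eµ-PRMT5/TCL1 mice. The other genes of the arm were less extreme, with Atf4 at 91.0% and 63.7% and Ppp1r15a at 80.3% and 87.0%. None of the fitted log2 fold changes between genotypes exceeded its standard error, at -0.55 ± 0.94 for Chac1, -0.43 ± 0.49 for Atf4, -0.30 ± 0.47 for Ppp1r15a, -0.27 ± 0.90 for Asns, -0.08 ± 0.99 for Trib3 and 0.01 ± 0.62 for Ddit3. The 43 other genes of the arm tested, transfer RNA synthetases, amino acid transporters and enzymes of serine and proline synthesis among them, had means of 6.89, 7.36, 6.11 and 6.91 log2 CPM in Eµ-PRMT5 mice 1 to 4, 7.11, 7.04 and 6.30 in Eµ-PRMT5/TCL1 mice 1 to 3 and 6.76 with TCL1 alone. Mouse 3 of both genotypes was again lowest, and Eµ-PRMT5 mouse 4 was not among the low ones. One gene of this list with the pattern of Trib3, named after its values were seen, was the stress-induced Sesn2, at 230, 304, 47.9 and 29.9 CPM, 195, 330 and 35.2 CPM, and 245 CPM. Mouse 3 of both genotypes also had the lowest neutrophil granule sums of its group, 434 and 671 CPM, but Eµ-PRMT5 mouse 4, with low Trib3 and Chac1, had a high one (5537 CPM). Summed immediate early genes, which respond to handling of cells, were at 3510 and 2638 CPM in Eµ-PRMT5 mice 3 and 4 and 4453 CPM in Eµ-PRMT5/TCL1 mouse 3, against 2037 to 3563 CPM in the other 5 libraries. Single genes of this list, read after their values were seen, differed in direction. In the same libraries Fos was at 480 to 1194 CPM, against 72.5 to 152 CPM in the other 5. Jun (347 to 895, against 38.4 to 173 CPM) and Dusp1 (342 to 588, against 137 to 337 CPM) were also higher. Nr4a1 (65.3 to 142, against 288 to 1272 CPM) and Ier2 (278 to 407, against 421 to 693 CPM) were lower. Junb, Fosb, Egr1, Ier3 and Zfp36 overlapped. The part of other cells, of handling or of histology in the spread of this arm was not tested.

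The other genes of the pathway gave a like picture, with 0 genes past the adjusted threshold in any list by edgeR or by DESeq2. At an unadjusted p of edgeR under 0.05, 1 of 31 other ER folding and quality control genes was lower and 0 higher, 0 of 29 other translocation, glycosylation and signal peptidase genes differed, 1 of 30 ER to Golgi transport genes was lower and 0 higher, and 1 of 43 other PERK and ATF4 arm genes was lower and 1 higher. The gene of the first list was Xbp1, at 2249, 961, 331 and 482 CPM in Eµ-PRMT5 mice 1 to 4, 390, 284 and 518 CPM in Eµ-PRMT5/TCL1 mice 1 to 3 and 1480 CPM in the Eµ-TCL1 mouse. The log2 fold change was -1.34 ± 0.61 (unadjusted p = 0.0480, adjusted p = 1 by edgeR), and Eµ-PRMT5 mouse 3 lay among the Eµ-PRMT5/TCL1 mice. The others were Sec24d, a coat protein of vesicles that leave the ER, at 33.3 to 81.9 CPM against 24.9 to 27.5 CPM (log2 fold change -0.94 ± 0.40), Pycr1, an enzyme of proline synthesis (-1.22 ± 0.54), and Nupr1, a stress-induced nuclear protein (1.71 ± 0.64), for which Eµ-PRMT5/TCL1 mouse 1 was at 122 CPM and all others between 10.6 and 30.7 CPM. Of the genes of the 4 lists, only Sec24d and Ero1lb had groups that did not overlap. Ero1lb, an ER oxidase, was higher in all 3 Eµ-PRMT5/TCL1 mice (235 to 284 CPM, against 59.8 to 235 CPM). Its margin is lost in rounding. Over all genes tested, the Eµ-PRMT5/TCL1 mice lay all above the Eµ-PRMT5 mice for 1.35% and all below them for 1.59%.

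Plasma cells carry high levels of Xbp1 and of many members. The 8 plasma cell markers tested were all fitted below 0 in Eµ-PRMT5/TCL1 mice, from -2.50 to -0.01. Of all 13173 genes tested, 7823 were fitted below 0, with a median of -0.09. Sdc1 was at 203, 114, 60.0 and 37.0 CPM in Eµ-PRMT5 mice 1 to 4, 9.84, 9.44 and 35.5 CPM in Eµ-PRMT5/TCL1 mice 1 to 3 and 41.4 CPM in the Eµ-TCL1 mouse (log2 fold change -2.50 ± 0.66, unadjusted p = 0.00261, adjusted p = 1 by edgeR). Jchain spanned 29.2 to 3057 CPM with PRMT5 alone and 62.5 to 2096 CPM with both transgenes, and was at 156 CPM in the Eµ-TCL1 mouse. The fitted values of Irf4, Prdm1, Tnfrsf17 and Mzb1 were -0.82, -0.50, -0.25 and -0.01, and of Mzb1 57.2% of exon bases are shared with a gene on the same strand. In the Eµ-TCL1 mouse Prdm1 was at 210 CPM, against 29.5 to 95.2 CPM in the other 7 libraries, and Tnfrsf17 at 63.0 CPM, against 7.73 to 23.3 CPM. Eµ-PRMT5 mouse 1 had the highest Sdc1, Jchain and Xbp1, and within its group also the highest Prdm1 and Ell2. It was not the highest of its group for Irf4, Tnfrsf17 and Mzb1. Slamf7 was lowest there, at 36.5 CPM against 41.9 to 51.6 CPM in the rest of the group. This mouse had the highest level of its group for 6 members (Creld2, Herpud1, Derl1, Derl2, Eif2ak3 and Atf4). It had the lowest for 10 (Hyou1, Calr, P4hb, Sdf2l1, Edem2, Sel1l, Syvn1, Derl3, Sec61a1 and Sec61b). These are 16.7% and 27.8% of members, where it was highest for 26.5% and lowest for 29.1% of all genes tested. The part of plasma cells in the values of Xbp1, Herpud1 and Dnajb9 was not tested.

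The remaining comparison sets the 1 Eµ-TCL1 mouse against each replicated genotype. It has no replicate check, so these are values of this mouse and no test was made. Against the Eµ-PRMT5 mice, it lay below all 4 for 14 of 36 members, where it did so for 17.9% of all genes, and above all 4 for 3 members, against 24.4% of genes. Under other scalings or with missing cells counted as 0, the 14 and 3 became 9 to 16 and 1 to 5. Past 2-fold from their mean as well, it was below for 3 members (Calr, Sdf2l1 and Dnajc3; 6.35% of genes) and above for 2 (Sel1l and Eif2ak3; 16.2% of genes). Against the Eµ-PRMT5/TCL1 mice, it lay below all 3 for 19 members (27.6% of genes) and above all 3 for 5 (39.0% of genes). Under other scalings or with missing cells counted as 0, the 19 and 5 became 16 to 21 and 3 to 7, and with 1 Eµ-PRMT5/TCL1 mouse left out the 5 became 8 (without mouse 1), 6 (mouse 2) and 7 (mouse 3). With 1 Eµ-PRMT5 mouse left out, the 14 and 3 above became 14 to 18 and 3 to 5, with 5 without mouse 1. Past 2-fold from the Eµ-PRMT5/TCL1 mean as well, it lay below for 4 (Hsp90b1, Calr, Pdia6 and Sdf2l1; 7.54% of genes) and above for 4 (Herpud1, Sel1l, Eif2ak3 and Chac1; 18.7% of genes). These counts move with the scaling and with single mice. With missing cells counted as 0, 9 and 11 members lay past 2-fold below the Eµ-PRMT5 and Eµ-PRMT5/TCL1 mice and 1 and 1 above. By library size only, 1 and 2 lay below. Without Eµ-PRMT5 mouse 3 the 3 members below became 7 and without mouse 4 they became 1, without Eµ-PRMT5 mouse 1 the 2 above became 1, and without Eµ-PRMT5/TCL1 mouse 1 the 4 above became 7.

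Chaperones and translocation genes made up most of the lower values. Of the 14 chaperones and folding enzymes, 8 were lower in this mouse than in every Eµ-PRMT5 mouse and 12 lower than in every Eµ-PRMT5/TCL1 mouse, and 0 were above either group. Of the 4 translocation genes, 2 were lower than in every Eµ-PRMT5 mouse and 4 lower than in every Eµ-PRMT5/TCL1 mouse. The same held for 11 and 17 of the 29 other translocation, glycosylation and signal peptidase genes (37.9% and 58.6%). It held for 7 and 14 of the 30 ER to Golgi transport genes (23.3% and 46.7%). Of the 31 other ER folding and quality control genes it held for only 5 and 12 (16.1% and 38.7%). In the order of these 3 lists, 0 and 2, 2 and 7, and 5 and 9 genes lay above. Over all genes tested, 17.9% and 27.6% lay below and 24.4% and 39.0% above. The 2 and 4 of the 4 translocation genes became 0 and 2 by library size only and 0 and 3 by upper-quartile scaling. With missing cells counted as 0 they became 3 and 4. The median difference over the 14 chaperones and folding enzymes was -0.79 log2 from Eµ-PRMT5 and -0.81 from Eµ-PRMT5/TCL1 mice, where the median of all genes was 0.10 and 0.13. Under other scalings or with missing cells counted as 0, that median over the 14 genes ran from -1.05 to -0.53 and from -1.1 to -0.58, and that of all genes moved between -0.16 and 0.35. The sensor Eif2ak3 lay above every mouse of both other genotypes, at log2 differences of 1.38 from the Eµ-PRMT5 and 2.13 from the Eµ-PRMT5/TCL1 mean. Sel1l did so too, at 1.19 and 1.2. Herpud1, at 0.73 and 1.28, lay above all Eµ-PRMT5/TCL1 mice but within the Eµ-PRMT5 range. Syvn1 lay above all Eµ-PRMT5 mice (0.55 from their mean), and Dnajb9 and Chac1 above all Eµ-PRMT5/TCL1 mice (0.46 and 1.15). Calr and Sdf2l1 were at -1.28 and -1.51 from Eµ-PRMT5, and -1.75 and -1.84 from Eµ-PRMT5/TCL1 mice. Calr and Herpud1, whose windows above both hold a form of the ER stress response element, lay on opposite sides of the Eµ-PRMT5/TCL1 mice in this mouse. Trib3 and Chac1, at 1.31 and 1.05 above the Eµ-PRMT5 mean, lay inside the wide range of those mice. In this library the neutrophil sum (622 CPM) was near the low end of the others, the erythroid sum (33.3 CPM) and the T cell sum (227 CPM) were the lowest, and the plasma cell sum (1149 CPM) and B cell sum (4058 CPM) lay within the range of both other genotypes. The proliferation sum was 827 CPM, against 540 to 5633 CPM in Eµ-PRMT5 and 1218 to 2621 CPM in double transgenic mice, and 7 of its 10 genes lay below every Eµ-PRMT5/TCL1 mouse and 2 below every Eµ-PRMT5 mouse. The part of these cells and of proliferation was not tested.

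**Figure D5:**
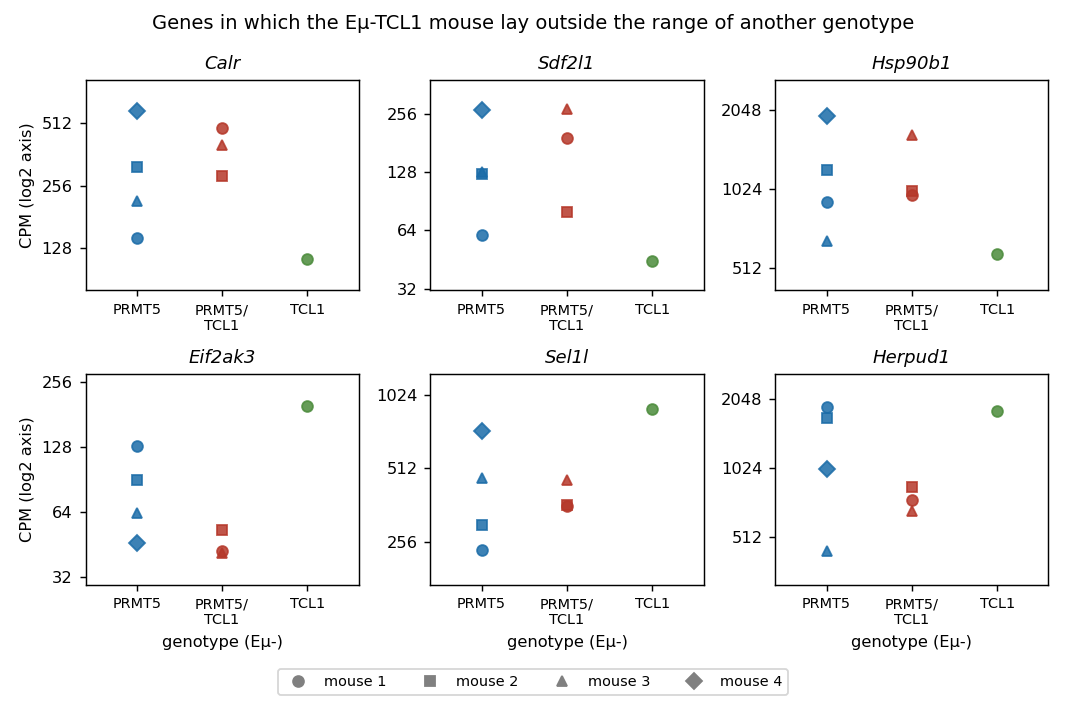
CPM on a log2 axis for 6 genes, 1 point a mouse, by genotype (x axis), with shapes for the mouse number. The Eµ-TCL1 mouse is the lowest library for Calr (113 CPM), Sdf2l1 (44.6 CPM) and Hsp90b1 (579 CPM) and the highest for Eif2ak3 (199 CPM) and Sel1l (897 CPM), while for Herpud1 (1813 CPM) it is matched by Eµ-PRMT5 mouse 1.

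Ratios of 2 genes within a library need no scaling between libraries. The pairs below were not planned and use genes already described above, so the ratios are not independent of those values. Herpud1 had 1.38 times the counts of Hspa5 in the Eµ-TCL1 mouse and 1.11 times in Eµ-PRMT5 mouse 1, against 0.271 to 0.399 in the other 6. Xbp1 over Hspa5 set the same 2 libraries apart, at 1.12 and 1.33 against 0.120 to 0.262. Eif2ak3 over Atf6, both sensors, was 2.13 in the Eµ-TCL1 mouse and 0.908 in Eµ-PRMT5 mouse 1, against 0.261 to 0.625 elsewhere. Sel1l over Syvn1 was 3.49 in Eµ-PRMT5 mouse 4 and 2.7 in the Eµ-TCL1 mouse, against 1.11 to 1.93 in the other 6. Chac1 over Atf4 was 0.0371 to 0.0606 in Eµ-PRMT5 mice 3 and 4 and Eµ-PRMT5/TCL1 mouse 3 and 0.177 to 0.294 in the other 5, so for Chac1 the 3 low libraries were also the lowest after division by Atf4.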

How the data were processed

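Splenic B cells of 8 mice (4 with PRMT5, 3 with PRMT5 and TCL1 and 1 with TCL1 alone) were profiled by bulk RNA-seq. Per the methods, RNA of isolated B cells was preamplified (SMARTer v4) and made into Nextera XT libraries, a kit that does not mark strand, whereas the labels name a stranded kit. The deposited table holds raw read counts by gene symbol, which the authors made with Subread's featureCounts on GRCm38 per the labels, whose notes also name DESeq2 1.20.0. Aligner settings, annotation, use of strand and the meaning of 36919 missing cells are not given in the sources used here.

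Genes with a count in all 8 libraries (14072 of 24902) were kept, and edgeR's expression filter left 13173. Counts were scaled by TMM (factors 0.859 to 1.159), and a quasi-likelihood model of the 3 genotypes was fitted to all genes (edgeR 4.0.16 in R 4.3.3) with Benjamini-Hochberg adjustment over all of them. Its biological coefficient of variation was 0.483. Levels are TMM-scaled CPM, log2 CPM uses a prior count of 2, and TCL1 differences are from the mean log2 CPM of a group. DESeq2 1.42.0, other scalings and filters, other prior counts, each mouse left out and the replicate block were alternatives, and the fits were tested on simulated data. Pairs of libraries held the same count for 4.25% to 5.07% of genes. The p-values measure the spread between these animals only.

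Members and gene lists were chosen with earlier results of these data known. All members were accounted for. Values in all mice were printed for the sensors, commonly used targets of each arm, members with an unadjusted p under 0.05 or among the 6 largest differences between the replicated genotypes or from the Eµ-TCL1 mouse, and in other lists for Xbp1 and up to 3 genes with the smallest p. Exon bases of 11 members coincide with those of a gene on the opposite strand and of 3 with a gene on the same strand, so their counts are uncertain. The 11 are Hsp90b1, Pdia3, Pdia6, Manf, Dnajb9, Syvn1, Derl2, Sec61a1, Spcs1, Eif2ak3 and Ppp1r15a, and the 3 are Hsp90b1, Pdia4 and Manf. Positions and exon lengths are from GENCODE vM21, and Ddit3 had no unique entry there. 1 gene of the B cell marker list is not reported here and was left out of its sum.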

Additional observations from a re-analysis of the deposited data

Results flagged for a closer look

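In the 4 Eµ-PRMT5 mice, the 36 genes and 6 gene means, 42 sets of values in all, were examined for a mouse far from the other 3 by Dixon's criterion, and 3 were found where chance gives about 2.1. Edem2 was at 7.41 log2 CPM in Eµ-PRMT5 mouse 1 against 7.57 to 7.6 in the others. Derl3 was at 2.9 log2 CPM in the same mouse against 5.13 to 5.48. The mean of the 4 translocation genes was 8.2 log2 CPM in Eµ-PRMT5 mouse 4 against 7.05 to 7.23.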

How the results depend on the processing

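No member was past an adjusted p of 0.05 under any alternative run (smallest 0.502), nor was any gene but with DESeq2, which called 3 higher and 1 lower. Before adjustment 126 genes were higher and 160 lower, and the counts were 424 and 347 without Eµ-PRMT5 mouse 3, 392 and 368 without mouse 4, 83 and 66 without Eµ-PRMT5/TCL1 mouse 2, 77 and 129 without mouse 1, 209 and 199 with missing cells counted as 0 and 146 and 248 with DESeq2. The 1 member lower before adjustment, Eif2ak3, became 0 to 2 members when a mouse was left out. The members' median log2 fold change ran from -0.25 (without Eµ-PRMT5 mouse 3) to 0.169 (replicate block), and was above 0 also without Eµ-PRMT5 mouse 4 (0.143), without Eµ-PRMT5/TCL1 mouse 2 (0.053), with upper-quartile scaling (0.0178) and on the 6 mice without a block (0.143). The numbers 1 to 3 occur in both genotypes but do not pair the mice, which are different animals and whose deviations correlated by number at -0.0206, 0.154 and 0.16. With the replicate block on those 6 mice 495 genes were higher and 331 lower before adjustment (smallest adjusted p 0.0965), and without the block on the same 6 mice 374 and 368. Of 576 values of single members under other settings, 488 kept their direction and 88 in 25 members reversed, 3 of them (all Pdia6) by more than their own standard error, and 11 members, Eif2ak3 among them, never reversed; the cause was not tested. Reversed log2 fold changes were, with DESeq2, Sec61a1 -0.012 and Ddit3 -0.0055. They were, with missing cells counted as 0, Sec61a1 -0.0133 and Ddit3 -0.013. They were, with at least 10 counts required in every library, Hspa5 0.00651 and Manf 0.0013. They were, with library size only, Hspa5 0.0143, Manf 0.0236 and Spcs1 0.0082. They were, with upper-quartile scaling, Hspa5 0.0587, Hyou1 0.0148, Manf 0.0566, Spcs1 0.0467 and Trib3 0.0208. With the replicate block they were Hspa5 0.237, Hyou1 0.413, Canx 0.114, Pdia6 0.47, Manf 0.225, Dnajb11 0.0203, Sel1l 0.278, Spcs1 0.0716, Atf6 0.0233 and Ddit3 -0.0372. On the same 6 mice with no block they were Hspa5 0.0292, Hyou1 0.224, Canx 0.0606, Pdia6 0.423, Manf 0.222, Dnajb11 0.0181, Sel1l 0.23, Spcs1 0.0897, Ddit3 -0.107 and Asns 0.196. When each mouse was left out in turn, the reversed members ranged as Hspa5 -0.255 to 0.347, Hsp90b1 -0.253 to 0.387, Hyou1 -0.349 to 0.228, Canx -0.336 to 0.0613, Pdia3 -0.139 to 0.35, Pdia4 -0.213 to 0.686, Pdia6 -0.411 to 0.424, P4hb -0.133 to 0.627, Creld2 -0.423 to 0.285, Manf -0.198 to 0.224, Sdf2l1 -0.108 to 0.785, Dnajb11 -0.31 to 0.0195, Edem1 -0.0529 to 0.558, Sel1l -0.326 to 0.235, Derl3 -0.666 to 0.542, Sec61a1 -0.208 to 0.514, Sec61b -0.0591 to 0.539, Spcs1 -0.221 to 0.0925, Ern1 -1.17 to 0.205, Ddit3 -0.337 to 0.455, Ppp1r15a -0.658 to 0.0761, Trib3 -0.903 to 0.598, Asns -2.52 to 0.263 and Chac1 -0.917 to 0.189. Members of the Eµ-TCL1 mouse past 2-fold below all Eµ-PRMT5 mice numbered 3, 9 with missing cells counted as 0, 1 by library size only and 1 to 7 when a mouse was left out, and those above 2, 1 with missing cells counted as 0 and 1 to 2 when a mouse was left out. Against Eµ-PRMT5/TCL1 mice 4 below became 11 with missing cells counted as 0, 2 by library size only and 2 by upper-quartile scaling, and 4 above became 1 with missing cells counted as 0 and 3 to 7 when a mouse was left out. With a fold change over 4 required as well, edgeR left 0 genes and DESeq2 its 3 and 1. Counting missing cells as 0, except for the gene group means, and the 6 mice without a block were chosen after the data were seen. Depth of 3.36 M counts and 1 animal limit what the Eµ-TCL1 values can show.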
